A study of Mus musculus with 27 samples.

Results

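The stretch of mouse chromosome 2 from 146.99 to 147.90 Mb (build mm9) holds 3 genes for developmental transcription factors, with Nkx2-2 at the low end, Pax1 above it and Foxa2 at the high end. Every peak of 19 deposited lists that overlapped this window was taken, which gave 127 of 234651 peaks, namely 86 H3K27me3, 39 H3K4me3 and 2 UTX peaks. The window was chosen by the H3K4me3 and H3K27me3 peaks called with dox in the 2 genotypes and in embryonic stem cells, so its values are a description and no difference in it was tested. For the account of single genes it was divided into an Nkx2-2 segment (146.99 to 147.09 Mb, 44 peaks), a Pax1 segment (147.14 to 147.24 Mb, 27 peaks) and a Foxa2 segment (147.82 to 147.90 Mb, 45 peaks). The sequence between the segments, the larger part of the window, held 11 peaks.

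The series mapped histone marks by chromatin immunoprecipitation and sequencing to ask how the H3K27 demethylase UTX acts when cells are reprogrammed to pluripotency. Its lists came from mouse embryonic fibroblasts (MEF) of the V19-OSKM strain, which carry the OSKM reprogramming factors under doxycycline (dox) control, from 2 iPS clones and from V6.5 embryonic stem cells (ESC). Utx-KO (Utx-/Y) MEF and WT (Utx+/Y) MEF were each mapped with dox and without it, all of them grown in 2i/LIF medium. The 2 iPS clones, which the submitters call aberrant, arose from V19-OSKM Utx-/Y cells and were mapped without dox. Utx-KO (Utx-/Y) ESC and WT (Utx+/Y) ESC were grown in 2i/LIF medium without dox. Each state and mark had 1 library apart from the clones, and UTX was mapped in WT cells only. The labels used here give neither the length of the dox treatment nor the number of animals or clones behind the MEF and ESC. The cell labels were taken as given, because the peaks could not be set against marker genes without an annotation of their build.

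H3K27me3 is laid down by Polycomb repressive complex 2 and marks silenced developmental genes, whereas H3K4me3 marks the promoters of active or poised genes. UTX, also called KDM6A, removes methyl groups from H3K27. Nkx2-2 encodes a homeodomain factor of the ventral neural tube and of hormone-producing pancreatic cells. Pax1 encodes a paired box factor of the sclerotome, the source of the vertebral column, and of the pharyngeal pouches. Foxa2 encodes a forkhead pioneer factor of the node, notochord, floor plate and definitive endoderm. In ESC all 3 belong to the developmental regulators that Polycomb is known to hold silent.

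In the RefSeq annotation of another build, GRCm38, Nkx2-2, Pax1 and Foxa2 follow each other in this order on chromosome 2. Pax1 is the only protein-coding gene among the 15 annotated genes between Nkx2-2 and Foxa2, and the next protein-coding genes are Nkx2-4 below Nkx2-2 and Sstr4 above Foxa2. The positions of that annotation were not used, so a peak is placed in a segment by its midpoint and not on a start site, exon or intron. To show the promoter DNA of the 3 genes, the 250 bases upstream of 1 RefSeq start site of each gene are printed 5′ to 3′ from GRCm38.p6, with CpG dinucleotides (the letters CG, the same on both strands) in capitals. Both marks sit on histone H3 and are often found at CpG-rich DNA.

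Nkx2-2 (minus strand): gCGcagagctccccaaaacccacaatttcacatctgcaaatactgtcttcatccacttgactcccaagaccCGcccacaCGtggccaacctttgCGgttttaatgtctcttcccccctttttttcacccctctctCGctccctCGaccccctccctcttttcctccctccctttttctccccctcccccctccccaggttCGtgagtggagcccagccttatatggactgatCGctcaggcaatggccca

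Pax1 (plus strand): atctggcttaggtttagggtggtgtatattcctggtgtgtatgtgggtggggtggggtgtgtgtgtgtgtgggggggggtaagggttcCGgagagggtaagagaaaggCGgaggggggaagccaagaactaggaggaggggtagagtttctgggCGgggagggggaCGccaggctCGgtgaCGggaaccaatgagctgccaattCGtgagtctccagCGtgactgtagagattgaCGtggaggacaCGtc

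Foxa2 (minus strand, the second of 3 listed start sites): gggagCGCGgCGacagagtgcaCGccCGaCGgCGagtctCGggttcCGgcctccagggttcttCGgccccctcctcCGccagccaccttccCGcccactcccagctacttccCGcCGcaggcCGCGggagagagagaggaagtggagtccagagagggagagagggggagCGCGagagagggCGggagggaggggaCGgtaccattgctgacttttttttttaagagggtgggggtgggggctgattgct

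The Nkx2-2 sequence held 8 CpG, a number reached by 43.0% of 32851 RefSeq promoters of the same length. Pax1 had 10 CpG (37.8% of promoters had as many), and the Foxa2 sequence shown had 20 (17.9%). The other Foxa2 start sites had 6 and 13 CpG, which 50.4% and 31.5% of promoters reached, and the median of all promoters was 6.00. The Foxa2 site with most CpG was picked for printing after these counts were known. The counts describe these windows alone and were not tied to any peak.

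**Figure D1:**
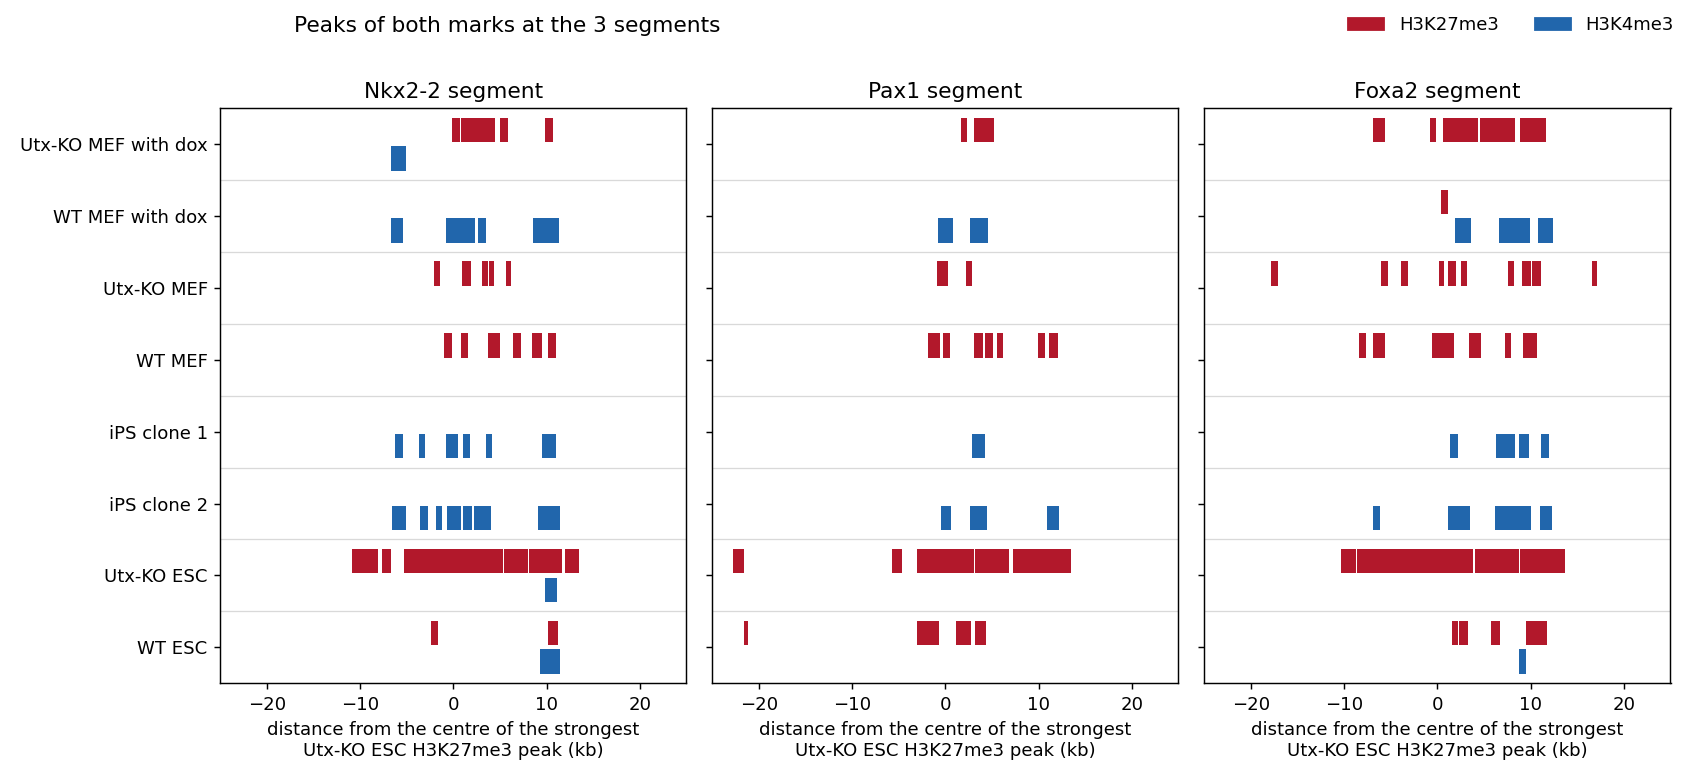
Peaks of H3K27me3 (red) and H3K4me3 (blue) in the 3 segments, by cell state. The horizontal axis gives the distance in kb from the centre of the highest scoring Utx-KO ESC H3K27me3 peak of the segment, and each bar is 1 peak at its true width. Red bars without blue ones stand in the rows of both untreated MEF. Utx-KO MEF with dox and both ESC have mainly red bars, and WT MEF with dox and the iPS clones mainly blue ones. The only H3K27me3 peak of iPS clone 2 lies outside the range shown.

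The lists differ in length, and each value below is read with this in mind. The H3K4me3 lists held 16157 to 28232 peaks and the H3K27me3 lists 135 to 36231. Sequencing depth is unknown, since read totals were not used here. The deposited score grows with the confidence of a call, starts at 50 and depends on depth as well as on enrichment. Only 2.35% of the 938 H3K27me3 peaks of WT MEF with dox and 17.6% of the 5679 of WT ESC scored 100 or more, against 89.7% in WT MEF. None of the 135 H3K27me3 peaks of iPS clone 1 did. A stretch without a peak therefore means that none was called, not that the mark was absent.

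Without dox, fibroblasts of either genotype carried H3K27me3 and no H3K4me3 peak across the locus. Utx-KO MEF had 18 H3K27me3 peaks covering 12.8 kb and WT MEF had 20 covering 20.7 kb. H3K4me3 had 0 peaks in the 22056 of Utx-KO MEF and 0 in the 18017 of WT MEF, which allows a share of the list of up to 0.0167% and 0.0205% (upper ends of exact 95% binomial intervals, which cover counting error only). The locus held 0.315% of the H3K27me3 list of Utx-KO MEF (interval 0.187 to 0.498) and 0.420% of that of WT MEF (0.257 to 0.648). When the genome was cut into 2892 tiles of 910 kb, 1.35% of tiles had as much H3K27me3 as the locus in Utx-KO MEF and 0.588% in WT MEF. The median tile had 0 kb in both lists. Tiles include stretches to which reads cannot be mapped, which lowers such shares.

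At Foxa2, the strongest H3K27me3 peak of Utx-KO MEF lay at 147873195 to 147874107 (score 278), and that of WT MEF was 2337 bp wide, from 147862472 to 147864808 (score 388). At Nkx2-2, the leading peak of Utx-KO MEF was at 147011002 to 147011997 (score 314) and that of WT MEF at 147013762 to 147015069 (score 384). At Pax1, Utx-KO MEF led with 147186922 to 147188066 (score 175) and WT MEF with 147185967 to 147187295 (score 207). Both genotypes thus had their highest scores at Nkx2-2 and Foxa2 and lower ones at Pax1. Pax1 had the widest gap in length, where Utx-KO MEF had 1.73 kb and WT MEF 6.29 kb. At Foxa2 the lengths were 7.17 kb and 7.80 kb, and at Nkx2-2 3.27 kb and 5.76 kb.

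Merging overlapping H3K27me3 peaks of the 2 untreated lists gave 27 regions in the locus, of which 8 were only in Utx-KO MEF, 12 only in WT MEF and 7 in both. Over all 8392 regions of the genome 46.3% were only in Utx-KO MEF and 36.7% only in WT MEF. Utx-KO MEF minus WT MEF was -7.88 kb at this locus, and 0.588% of tiles lay as low. The peaks were short, and their median width was 651 bp over the Utx-KO list against 831 bp over the WT list. Of the 20 WT MEF peaks, 8 met a Utx-KO MEF peak (40.0%, against 35.3% of the whole WT MEF list).

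**Figure D2:**
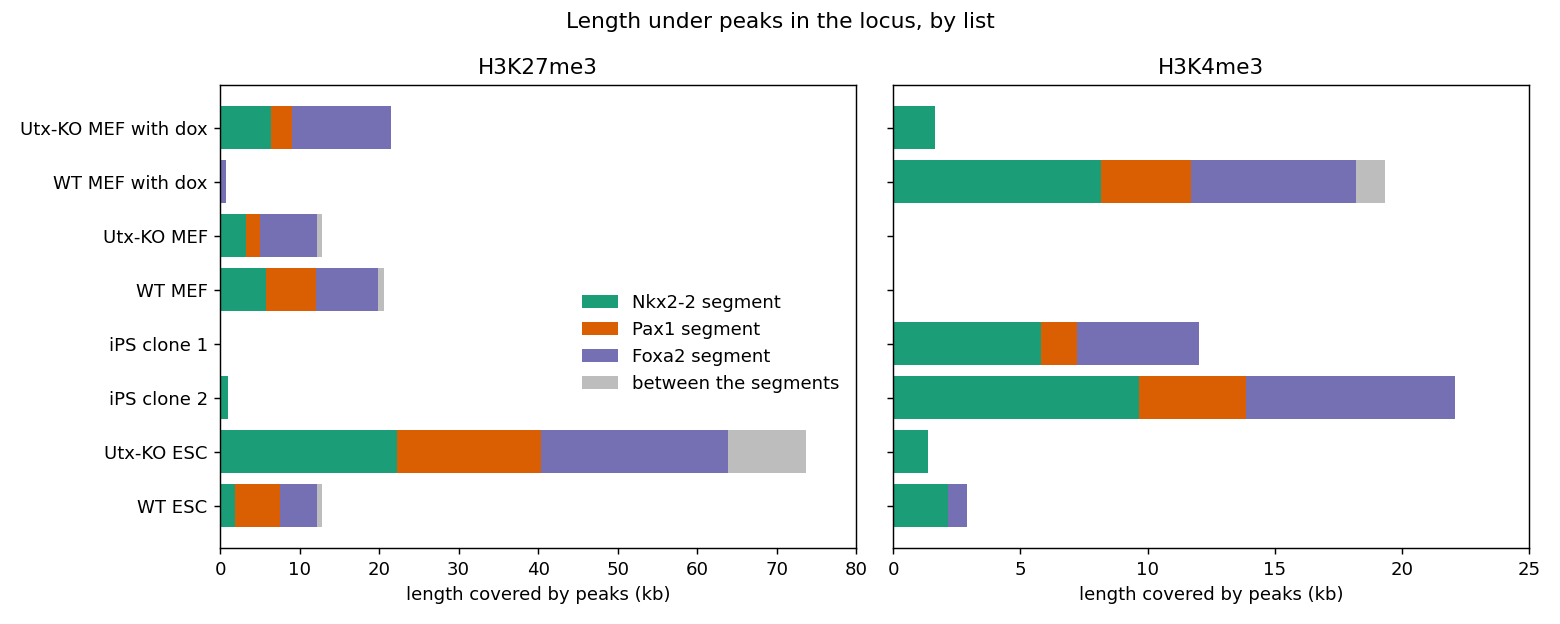
Length under H3K27me3 peaks (left) and H3K4me3 peaks (right) in the locus, in kb, stacked by segment, for each cell state. The 2 panels have different scales. Bars are single libraries without error bars. Utx-KO MEF with dox had 21.5 kb of H3K27me3 and 1.62 kb of H3K4me3, and WT MEF with dox had 0.684 and 19.3 kb.

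With dox, the genotypes parted in each of the 3 segments. Between the segments neither had an H3K27me3 peak, and the only H3K4me3 peak was 1 of WT MEF with dox (1.14 kb). Utx-KO MEF with dox carried 12 H3K27me3 peaks (21.5 kb) and 1 H3K4me3 peak (1.62 kb), whereas WT MEF with dox carried 1 H3K27me3 peak (0.684 kb) and 10 H3K4me3 peaks (19.3 kb). All 3 genes showed this arrangement. At Foxa2, H3K27me3 covered 12.4 kb in Utx-KO MEF with dox and 0.684 kb in WT MEF with dox, and H3K4me3 covered 0 and 6.47 kb. At Nkx2-2 the H3K27me3 lengths were 6.32 kb in Utx-KO MEF with dox and 0 in WT MEF with dox, and those of H3K4me3 1.62 and 8.16 kb. At Pax1 Utx-KO MEF with dox had 2.73 kb of H3K27me3 and no H3K4me3 peak, and WT MEF with dox had 3.56 kb of H3K4me3 and no H3K27me3 peak.

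The H3K4me3 lists with dox were close in length and strength, with 16157 peaks in Utx-KO cells (90.3% at a score of 100 or more) and 19689 in WT cells (85.8%). Of 10 merged H3K4me3 regions in the locus, 0 were only in Utx-KO MEF with dox, 9 only in WT MEF with dox and 1 in both. Over the genome, 4.53% of 20309 regions were only in the Utx-KO list and 20.8% only in the WT list. The H3K4me3 length differed by -17.7 kb between Utx-KO and WT cells with dox, and 0.622% of tiles lay as low. The median tile differed by 0 kb. Among the 16157 highest scoring peaks of each list the locus still had 1 peak in Utx-KO MEF with dox and 7 in WT MEF with dox.

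For H3K27me3, 11 of 12 merged regions were only in Utx-KO MEF with dox, 0 only in WT MEF with dox and 1 in both. That share, 91.7%, stands beside 81.6% of 4979 regions genome-wide, and 13.2% of all regions were only in the WT list. The locus differed by 20.8 kb, and 1.11% of tiles differed as much. Among the 938 highest scoring peaks of each H3K27me3 list, an alternative added after the data were seen, the locus held 5 of Utx-KO MEF with dox (14.1 kb) and 1 of WT MEF with dox. The part of list length in the remaining difference was not tested.

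The single H3K27me3 peak of WT MEF with dox lay at Foxa2, at 147863416 to 147864099, with a score of 50.6 that ranked 876 of 938. In Utx-KO MEF with dox the leading peaks were at 147010917 to 147014524 in the Nkx2-2 segment (3608 bp, score 696, rank 94 of 4335) and at 147863576 to 147867397 in the Foxa2 segment (3822 bp, score 532, rank 177). Another, at 147871885 to 147874680 near Foxa2, scored 510 (rank 198). The Pax1 peaks of this list were weaker, the leading one at 147190922 to 147193007 with a score of 143 (rank 1210).

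All 10 H3K4me3 peaks of WT MEF with dox were in the weaker part of their list by score, from rank 11202 to rank 19286 of 19689. The highest in the Nkx2-2 segment, at 147009241 to 147012399, was 3159 bp wide and scored 621 (rank 11202). The Foxa2 segment was led by 147869656 to 147872951, 3296 bp wide with a score of 421, the widest of the locus in this list. At Pax1 the leading peak was at 147190524 to 147192412 (score 360). The single H3K4me3 peak of Utx-KO MEF with dox, at 147003383 to 147005003 at the low side of the Nkx2-2 segment, scored 65.2 and ranked 15580 of 16157. At that place WT MEF with dox had a peak of score 485 (rank 11998 of 19689). Scores of different lists are not directly comparable.

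With dox, H3K4me3 of WT cells and H3K27me3 of Utx-KO cells overlapped in part. The window was chosen by both of these lists, among others. The genome-wide values below therefore give scale only, and an excess in the locus partly restates that choice. Of the 10 H3K4me3 peaks of WT MEF with dox, 7 met an H3K27me3 peak of Utx-KO MEF with dox (70.0%), against 10.7% of the whole WT list. The shared length was 10.9 kb, which is 56.3% of the H3K4me3 length in WT MEF with dox and 50.7% of the H3K27me3 length in Utx-KO MEF with dox. In 1.00% of tiles the shared length was as large, and 1013 of 2892 tiles had any. Of the 9 H3K4me3 regions found only in WT cells, 7 carried H3K27me3 in Utx-KO cells, compared with 15.0% of the 4223 such regions genome-wide. In the other direction, 8 of the 12 H3K27me3 peaks of Utx-KO MEF with dox met H3K4me3 of WT MEF with dox (66.7%), which is nearer to the 56.9% of the whole list.

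Set against untreated cells, dox came with opposite directions of H3K27me3 length in the 2 genotypes. In Utx-KO cells the locus had 21.5 kb with dox and 12.8 kb without, a difference of 8.71 kb, while the whole lists covered 6.41 and 4.20 Mb. In WT cells it had 0.684 kb with dox and 20.7 kb without, a difference of -20.0 kb, while the whole lists covered 0.643 and 4.59 Mb. Each of the 3 segments showed the same pair of directions, and the difference between the genotypes was not tested. By merged regions of the Utx-KO lists, 5 occurred with dox alone, 6 in untreated cells alone and 7 under both conditions. With a minimum score of 100 the counts were 3 with dox alone and 8 in untreated cells alone. Genome-wide the shares were 35.3% with dox alone and 45.0% in untreated cells alone. The Utx-KO peaks were wider with dox, where the list had a median width of 1027 bp, than without, where it was 651 bp. In WT cells no region was specific to dox (13.5% genome-wide), 19 were specific to untreated cells (83.0% genome-wide) and 1 was shared. The WT list with dox held 938 peaks and the untreated one 4760. With lists of equal length no region was specific to dox and 3 were specific to untreated cells, and the locus had 0.684 kb with dox and 6.48 kb without.

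H3K27me3 peaks of untreated Utx-KO MEF were often met by the wider peaks with dox, which shared 55.5% of their length. The window was chosen by both marks with dox, so locus shares that involve a list with dox partly restate that choice. Of the 18 peaks, 12 met an H3K27me3 peak of Utx-KO MEF with dox (66.7%, against 40.8% of the list), and 0 met an H3K4me3 peak of those cells (20.4% of the list). Of the 20 WT MEF peaks, 1 met an H3K27me3 peak of WT MEF with dox (5.00%, against 4.56% of the list) and 11 met an H3K4me3 peak (55.0%, against 37.9%). Set against Utx-KO MEF with dox, 11 of the 20 met H3K27me3 (55.0%, against 46.2%) and none met H3K4me3 (24.3% of the list). Utx-KO MEF with dox had only 1 H3K4me3 peak in the locus, so the lack of overlap with it restates that count. For H3K4me3, all 10 regions of the WT pair were found only with dox, compared with 34.1% genome-wide, where 4.07% were only in untreated WT MEF. The gain of 19.3 kb was reached in 15.4% of tiles (median 5.33 kb), and 33.5% of tiles had as much H3K4me3 in WT MEF with dox. The 1 region of the Utx-KO pair was found only with dox as well (18.3% genome-wide, with 5.62% only in untreated Utx-KO MEF), and no region was found in the untreated pair of genotypes, where 19.0% of all H3K4me3 regions were only in Utx-KO MEF and 10.6% only in WT MEF.

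The H3K4me3 peaks of all 8 lists merged into 13 sites, 5 in the Nkx2-2 segment, 3 in the Pax1 segment, 4 in the Foxa2 segment and 1 between them. Utx-KO MEF with dox had H3K4me3 at 1 of them and WT MEF with dox at 9. The iPS clones had it at 8 and 12, Utx-KO ESC at 1 and WT ESC at 2. With dox, H3K27me3 touched 7 sites in Utx-KO cells and 1 in WT cells, and without dox 7 in Utx-KO MEF and 8 in WT MEF. It touched none in either iPS clone, 12 in Utx-KO ESC and 7 in WT ESC. No site was marked by H3K4me3 in more than 5 lists, and 4 sites were marked in a single list.

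**Figure D3:**
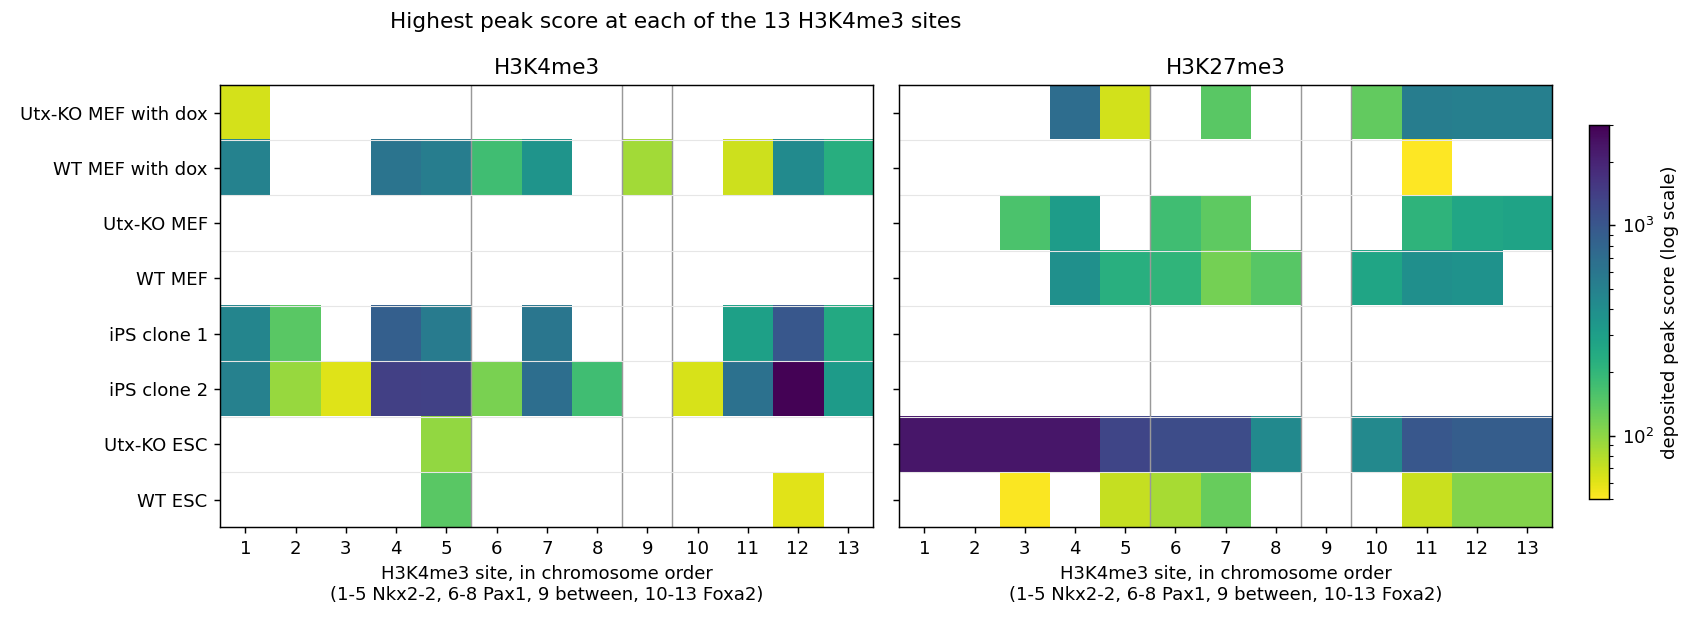
Highest deposited score of an H3K4me3 peak (left) and of an H3K27me3 peak (right) at each of the 13 sites that carried H3K4me3 in any list, on a logarithmic colour scale; white means no peak. The 2 untreated MEF rows are empty on the left, the 2 iPS rows are empty on the right, and Utx-KO ESC has H3K27me3 at 12 of 13 sites. Colours are comparable within a list only, because scores depend on depth.

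The widest site, the fourth in chromosome order, lay in the Nkx2-2 segment from 147009241 to 147014233. There H3K27me3 lay over 4242 bp with dox and 1982 bp without dox in Utx-KO cells. In WT cells it lay over 1997 bp without dox, and no peak was called with dox. H3K4me3 covered 3995 bp in WT MEF with dox, with a score of 621. Both clones also carried H3K4me3 there, over 2757 bp in clone 1 (score 864) and 4329 bp in clone 2 (score 1370). Utx-KO ESC had H3K27me3 over all 4993 bp of it, and WT ESC had no peak of either mark.

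At Foxa2, the twelfth site ran from 147869185 to 147873039. H3K27me3 lay over 3319 bp with dox and 1712 bp without dox in Utx-KO cells, and over 1501 bp in untreated WT cells. H3K4me3 covered 3296 bp in WT MEF with dox, 3045 bp in iPS clone 1 and all 3855 bp in iPS clone 2, where the peak scored 2952 (rank 6191 of 28232). In Utx-KO ESC 3732 bp carried H3K27me3 and no H3K4me3 was called, and in WT ESC 1065 bp carried H3K27me3 and 775 bp H3K4me3. The neighbouring eleventh site, from 147864089 to 147866550, was the place where most lists had H3K27me3, with 6 of 8, although in WT MEF with dox only 11 bp of the site were covered.

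At Pax1, the seventh site from 147190476 to 147192412 was marked by H3K4me3 in WT MEF with dox (score 360), iPS clone 1 (605) and iPS clone 2 (678). H3K27me3 was called there in Utx-KO MEF with dox over 1491 bp, in Utx-KO MEF over 183 bp, in WT MEF over 1193 bp, in Utx-KO ESC over 1826 bp and in WT ESC over 1328 bp. No H3K4me3 was called at Pax1 in either ESC list.

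The fifth site, from 147018583 to 147021528 at the high side of the Nkx2-2 peaks, was the most widely shared H3K4me3 site, with 5 of 8 lists. It was also the only site with H3K4me3 in both ESC lists, over 1348 bp in Utx-KO ESC (score 97.6) and 2143 bp in WT ESC (score 142). The ninth site, from 147534256 to 147535391 and distant from the 3 genes, had a peak only in WT MEF with dox (score 88.4) and no H3K27me3 in any list.

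In ESC the locus carried H3K27me3 with little H3K4me3, and more H3K27me3 was called in Utx-KO cells. Utx-KO ESC had 23 H3K27me3 peaks covering 73.7 kb and WT ESC had 11 covering 12.8 kb. H3K4me3 covered 1.35 kb in Utx-KO ESC and 2.92 kb in WT ESC, where 0 regions were only in Utx-KO ESC (12.6% genome-wide), 1 only in WT ESC (11.2%) and 1 in both. The window was chosen partly by the ESC lists, so overlap with them in the locus partly restates that choice. Fibroblast peaks were then set against ESC peaks. Of these, 19 of 20 WT MEF H3K27me3 peaks (65.2% of the whole list did) and 12 of 12 of Utx-KO MEF with dox (100%, against 79.1%) met a Utx-KO ESC peak, and 6 of 20 WT MEF peaks met one of WT ESC (30.0%, against 22.5%). All 11 WT ESC peaks met a Utx-KO ESC peak (100%, against 78.6% of the list), and 96.7% of their length was covered. Of 23 merged regions 14 were only in Utx-KO ESC (60.9%, against 87.5% genome-wide), 0 only in WT ESC (3.26% genome-wide) and 9 in both.

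The 36231 peaks of Utx-KO ESC outnumber the 5679 of WT ESC, and the locus took a smaller share of the longer list. It held 0.0635% of the Utx-KO ESC peaks (0.0402 to 0.0952) and 0.194% of the WT ESC peaks (0.0967 to 0.346). In Utx-KO ESC 12.2% of tiles had as much H3K27me3 as the locus, in WT ESC 2.73%, and the difference of 60.9 kb was reached in 14.2% of tiles. Among the 938 highest scoring peaks of each list, the locus had 3 in Utx-KO ESC (20.4 kb) and 2 in WT ESC (3.89 kb). The part of list length in the larger Utx-KO ESC count was not tested.

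Single Utx-KO ESC peaks were nonetheless among the strongest and widest of their list. The peak at 147004735 to 147015430 in the Nkx2-2 segment spanned 10696 bp (rank 282 by width) and scored 2327, rank 72 of 36231. In the Pax1 segment 147184822 to 147190862 spanned 6041 bp with a score of 1161 (rank 660), and in the Foxa2 segment 147859135 to 147866864 spanned 7730 bp with a score of 982 (rank 981). The WT ESC peaks of the same segments scored up to 71.5 at Nkx2-2 (147020233 to 147021320), 129 at Pax1 (147188972 to 147190618) and 107 at Foxa2 (147872494 to 147874734). The order of the segments thus differed, as Nkx2-2 had the highest score in Utx-KO ESC and Pax1 in WT ESC. In kb, Foxa2 led in Utx-KO ESC with 23.5, Nkx2-2 had 22.2 and Pax1 18.2, while in WT ESC Pax1 led with 5.65, Foxa2 had 4.76 and Nkx2-2 1.82.

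**Figure D4:**
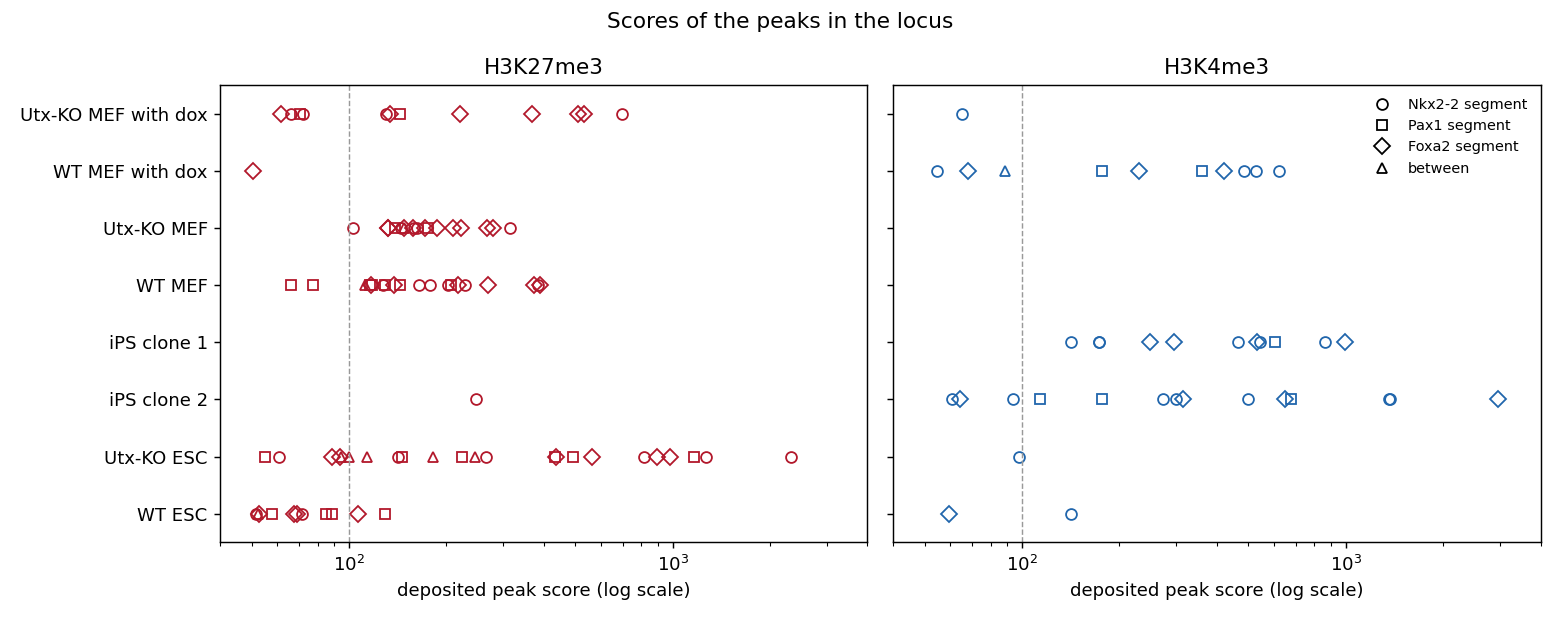
Deposited score of every H3K27me3 peak (left) and H3K4me3 peak (right) in the locus on a logarithmic axis, with 1 symbol per peak, its shape giving the segment and the dashed line a score of 100. The WT ESC H3K27me3 peaks lie between 51.4 and 129, and those of Utx-KO ESC reach 2327. Scores depend on depth and are comparable within a list only.

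Bases under both marks in the same library pair were rare. They amounted to 1.35 kb in Utx-KO ESC and 1.14 kb in WT ESC, and to 0 kb in every fibroblast state and both clones. In Utx-KO ESC 1 of 23 H3K27me3 peaks met H3K4me3 (15.6% of the list did) and in WT ESC 2 of 11 (26.6% of the list). In Utx-KO MEF with dox 0 of 12 did, beside 41.7% of that whole list. These cells had 1 H3K4me3 peak in the window, which was chosen by both marks with dox. The 0 therefore restates how little H3K4me3 was called there. In WT MEF with dox it was 0 of 1, where the list had 26.2%, and 1 peak is too few to set against that share. For untreated cells, which had no H3K4me3 peak in the locus to meet, 0 of 18 peaks in Utx-KO MEF stood beside 3.22% of the list and 0 of 20 in WT MEF beside 5.42%. Almost all of the shared ESC length was at the fifth site. At Foxa2 in WT ESC the marks overlapped by 0.0510 kb only.

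The aberrant Utx-KO iPS clones carried H3K4me3 at all 3 genes, and their overlap with WT MEF with dox was not far above that of the whole lists. Clone 1 had 11 H3K4me3 peaks covering 12.0 kb and clone 2 had 14 covering 22.1 kb, against 2 peaks and 2.92 kb in WT ESC. Of the clone 1 peaks 10 met a peak of WT MEF with dox (90.9%, against 77.9% of the list), and of the clone 2 peaks also 10 (71.4%, against 62.0%). Utx-KO MEF with dox had only 1 H3K4me3 peak in the locus, which 1 peak of clone 1 (9.09%, against 72.1%) and 1 of clone 2 (7.14%, against 55.7%) met. All 11 peaks of clone 1 met a clone 2 peak, and 10 of 14 clone 2 peaks met one of clone 1 (96.3% and 69.4% of the lists did). WT MEF with dox in turn had 9 of 10 H3K4me3 peaks on Utx-KO ESC H3K27me3 (90.0%, against 31.3%), 6 on WT MEF H3K27me3 (60.0%, against 7.00%) and 2 on WT ESC H3K4me3 (20.0%, against 73.5%). WT ESC had only 2 H3K4me3 peaks in the locus to meet, and both met one of WT MEF with dox (100%, against 76.2%). The window was chosen partly by the lists of WT MEF with dox and of ESC, so these shares partly restate that choice.

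Against WT ESC, 9 of 11 merged H3K4me3 regions were only in clone 1 (18.5% genome-wide) and 12 of 14 only in clone 2 (34.4%), and 0 were only in WT ESC (12.8% and 4.97%). The log2 ratio of regions only in the clone to regions only in WT ESC, each plus 1, averaged 3.51 ± 0.27 (SD, n = 2). Both clones were set against the same WT ESC library, so this SD reflects the clone counts alone. In these clones most H3K4me3 peaks lay where H3K27me3 was called in other Utx-KO cells. The window was chosen partly by H3K27me3 of Utx-KO MEF with dox and of ESC. High overlap with those lists in the locus therefore partly restates that choice. Of the 11 peaks in clone 1, 9 met H3K27me3 of Utx-KO MEF with dox (81.8%, against 10.2% of the list) and 10 met that of Utx-KO ESC (90.9%, against 28.2%). With untreated Utx-KO MEF H3K27me3 it was 6 of 11 for clone 1 (54.5%, against 5.36%) and 8 of 14 for clone 2 (57.1%, against 5.01%). Of the 14 peaks in clone 2, 9 met H3K27me3 of Utx-KO MEF with dox (64.3%, against 8.61%) and all 14 that of Utx-KO ESC (100%, against 28.8%).

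H3K27me3 in the clones amounted to 0 of 135 peaks in clone 1 and 1 of 737 in clone 2, at 147060810 to 147061806 (score 246), where no other list had a peak. WT ESC had 11 peaks, all of them missing in both clones, beside 97.7% and 88.5% of regions genome-wide that were only in WT ESC and 2.24% and 11.3% that were only in clone 1 and clone 2. A count of 0 in 135 peaks allows a share of up to 2.70%, far above the 0.194% of WT ESC, so a lack of H3K27me3 in clone 1 was not detectable at this list length. The share in clone 2 was 0.136% with an interval of 0.00344 to 0.754, which includes the 0.194% of WT ESC. A lower share than in WT ESC was thus not detectable in clone 2 either.

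UTX had no peak in any of the 3 segments. WT MEF with dox had 1 UTX peak in the locus, at 147280362 to 147280912 (score 56.1, rank 1753 of 3540), and WT ESC had 1 at 147118345 to 147119278 (score 155, rank 423 of 5076). WT MEF had 0 of 372, which allows up to 0.987% of that short list. Both peaks lay between the segments and met no H3K4me3 or H3K27me3 peak of any list. The nearest H3K4me3 peak of the same state was 88.0 kb away in WT MEF with dox and 96.8 kb in WT ESC, and the nearest H3K27me3 peak 370.4 kb and 13.8 kb.

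The window had no peak close to either edge. The nearest peaks inside were H3K27me3 of Utx-KO ESC, 9.24 kb from the low edge (score 264), and H3K27me3 of Utx-KO MEF, 19.9 kb from the high edge (score 186). Outside, the next peaks above the high edge were 318 kb away or more. Below the low edge a further cluster began at 68.8 kb, where both genotypes with dox had both marks. Utx-KO MEF with dox had H3K27me3 at 146908806 to 146912377 (score 815) and H3K4me3 at 146910157 to 146911786 (score 52.9). WT MEF with dox had H3K27me3 at 146908918 to 146910006 (score 96.2) and H3K4me3 at 146908806 to 146911678 (score 368). This cluster was not counted among the peaks of the locus.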

How the data were processed

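Of 27 samples, 19 were immunoprecipitated and had a peak list among the files used; 8 whole-cell extracts had none and were not analysed here. Build mm9 and the tools MACS 1.4.1, Bowtie 0.12.5 and CASAVA 1.8.2 stand in the submitters' processing notes; role, settings and controls are not given in the sources used here. There is 1 list per immunoprecipitated sample. The score of a peak is the authors' own deposited value, at least 50 in every list. Autosomal and sex chromosome peaks were used, 1 mitochondrial peak was left out, and positions are 1-based.

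Lists were compared by merging peaks that overlapped by at least 1 bp. Groups came from the sample titles. The members, segments and measures were chosen with earlier results of these data known. Named peaks were the highest scoring of each segment and list, the widest, and every UTX peak; others were chosen after their values were seen. Alternatives were a minimum score of 100, an overlap of 50% of the shorter peak, lists of equal length, each clone alone and a window 100 kb wider on each side. Intervals are exact 95% binomial (Clopper-Pearson) and cover counting error only. Overlap counts were recovered for 10 of 10 simulated pairs and 10 of 10 real pairs set against bedtools 2.31.1. Python 3.11.15, numpy 2.4.6, scipy 1.17.1 and matplotlib 3.10.9 were used. The gene list for related developmental programmes could not be used without an mm9 annotation.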

Additional observations from a re-analysis of the deposited data

Results flagged for a closer look

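In H3K27me3, the lengths with dox minus those without dox had opposite signs in the 2 genotypes. This drew attention to the locus, and the difference between the genotypes was not tested. Over the whole locus the value was 8.71 kb in Utx-KO MEF and -20.0 kb in WT MEF. In the Nkx2-2 segment it was 3.06 kb in Utx-KO MEF and -5.76 kb in WT MEF. In the Pax1 segment it was 0.994 kb in Utx-KO MEF and -6.29 kb in WT MEF. In the Foxa2 segment it was 5.27 kb in Utx-KO MEF and -7.12 kb in WT MEF. Whole lists moved the same way, covering 6.41 Mb with dox and 4.20 Mb without in Utx-KO cells and 0.643 and 4.59 Mb in WT cells, and the part of list length was not tested. The opposite signs hold for length only. Peak counts in the locus were lower with dox in both genotypes, 12 against 18 in Utx-KO MEF and 1 against 20 in WT MEF. The log2 ratio of merged regions was also negative in both, at -0.22 and -4.32. In Utx-KO MEF the median peak width in the locus was 1448 bp with dox and 669 bp without.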

How the results depend on the processing

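The value followed is the log2 ratio of merged regions only in the first list to those only in the second, each plus 1. No direction reversed under a score of at least 100, a 50% overlap or lists of equal length. With lists of equal length, H3K27me3 in Utx-KO ESC against WT ESC had a ratio of 0.42 (3 regions against 2) in place of 3.91. Under the same setting the iPS clones against WT ESC had 0.00 for H3K27me3 in place of -3.08, and 3.17 for H3K4me3 in place of 3.51. With a minimum score of 100 the clones had an H3K27me3 ratio of -1.08, and H3K4me3 in Utx-KO MEF with dox against Utx-KO MEF was 0.00 in place of 1.00, since its only peak scored below 100. With a 50% overlap, 1 H3K27me3 peak of WT ESC met H3K4me3 in place of 2. In Utx-KO MEF with dox against WT MEF with dox the ratios were 2.32 to 3.58 for H3K27me3 and -3.32 to -2.81 for H3K4me3. Each clone alone gave -3.58 and -2.58 for H3K27me3 and 3.32 and 3.70 for H3K4me3. Among peaks scoring 100 or more, H3K27me3 covered 18.4 kb in Utx-KO MEF with dox and 0 in WT MEF with dox, and 65.9 kb in Utx-KO ESC and 3.89 kb in WT ESC. Of the whole lists, 40.6% and 2.35% of peaks with dox reached this minimum, and 50.2% and 17.6% in ESC. Only 22 peaks of WT MEF with dox did so in the whole genome, so its 0 kb cannot set the locus apart from the list. For Utx-KO MEF with dox against Utx-KO MEF, H3K27me3 had -1.17 at that minimum in place of -0.22, and for WT MEF with dox against WT MEF -2.00 with lists of equal length in place of -4.32. A window 100 kb wider on each side kept 16 of 19 lists within 1.5 times of their length. The others were H3K27me3 of WT MEF with dox (1.77 kb in place of 0.684), H3K4me3 of Utx-KO MEF with dox (3.25 kb in place of 1.62) and H3K4me3 of WT ESC (5.00 kb in place of 2.92). No paired analysis was possible because the result comes from no test and only the iPS clones carry numbers. Single libraries and unknown depth limit every value.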
